A study of Mus musculus with 6 samples.

Results

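C-type lectin receptors are membrane proteins with which macrophages bind sugars on microbes, glycoproteins and dying cells. The 10 genes described here were chosen by symbol, with earlier results of these data known. All 10 were found among the 25124 genes of the deposited expression table. They are the mannose and galactose lectins Mrc1, Mgl2 and Clec10a, the genes Clec4e, Clec4d, Clec4n and Clec4a2 of the Dectin-2 and Mincle cluster, and Clec7a, Clec12a and Clec5a. The cells were RAW264.7, a mouse macrophage-like tumour line, taken at fewer than 15 passages and grown in medium with 25 mM glucose. All of them, controls included, came from a control line given a plasmid for the Cas9 nuclease with no guide RNA, made as the counterpart of an E4BP4 knockout. The M2 group received IL-4 at 10 ng/ml and the M0 group received no IL-4, with 3 libraries of poly(A) RNA in each. No source used here gives the length of the IL-4 exposure.

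The receptors differ in what they bind and in what they signal. The mannose receptor and the galactose lectins are mainly endocytic: they carry glycoproteins with exposed mannose, galactose or N-acetylgalactosamine into the cell, and in mouse macrophages their transcripts are widely used markers of alternative activation by IL-4. Mincle, MCL and Dectin-2 recognise glycolipids or mannans of mycobacteria and fungi and signal through the adaptor FcRγ to the kinase SYK and the CARD9, BCL10 and MALT1 complex, which leads to cytokine production. Dectin-1 binds β-glucan and reaches SYK through a motif in its own tail, whereas DCIR and MICL carry inhibitory motifs that recruit phosphatases.

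The mannose and galactose lectins rose with IL-4 and the abundant members of the Mincle cluster fell. All 10 members were tested, and 4 of them rose (Mrc1, Mgl2, Clec10a and Clec7a), 4 fell (Clec4e, Clec4d, Clec12a and Clec5a) and 2 did not pass (Clec4n and Clec4a2). Mrc1 could only have risen, since it passed the filter on low values through its M2 libraries alone. A gene was counted as risen or fallen at an adjusted p under 0.05 by limma on log2(TPM + 1), with Benjamini-Hochberg adjustment over all 11202 tested genes. TPM is a level scaled for transcript length and library size. By this rule 43.7% of all tested genes changed, 20.1% upward and 23.7% downward, so the count of changed members says little by itself. A log2 fold change of at least 1 in size, together with that adjusted p, was reached by 4 of 10 members, all upward, and by 2.45% of all tested genes, 1.05% upward and 1.4% downward. Mrc1 is 1 of those 4, with its direction fixed by the filter. Because the members were chosen with earlier results of these data known, the difference between these shares is no evidence about the family. The groups did not overlap for 8 of 10 members and for 55.9% of all tested genes.

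The libraries correlated at 0.991 or more within a group and at 0.976 or less across groups, on log2(TPM + 1). The reads behind the TPM values, recovered from their steps, numbered between 18139902 and 19511192 per M2 library and between 15615639 and 18110568 per M0 library. M2 replicate 3 stood apart from the other M2 libraries by transcript length: its median log2 difference from their mean was 0.109 over genes with a model under 1500 bases and -0.266 over genes with a model longer than 4000 bases. The macrophage markers of a fixed list were present, 10 of 10 at a mean of at least 1 TPM. Of 8 lymphocyte markers none reached a mean of 1 TPM and Cd3g and Cd8a were among those with 0 reads, and of 8 fibroblast and epithelial markers none reached it either. Among 8 dendritic cell markers Bst2 and Zbtb46 reached it, and among 8 neutrophil markers S100a8 did. All M0 libraries and no M2 library carry a re-analysis note in their labels, so IL-4 and any batch behind that note cannot be told apart. Nothing says that the replicates came from separate cultures, and the p-values then measure only the spread between these libraries. In bulk RNA, a change in the number of cells that express a gene and a change in RNA per cell cannot be told apart.

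Stretches of the promoters of 5 members are printed here because these genes showed the largest rises and falls among members with a RefSeq promoter entry that starts where the authors' gene model starts. Each run is the 250 bases before the gene's start, 5′ to 3′ on the gene's strand, from RefSeq on GRCm38.p6, the assembly known as mm10. Capitals mark the 6-base core bound by PU.1, a transcription factor of macrophages (GAGGAA, on either strand), and the palindrome bound by STAT6, the factor activated by the IL-4 receptor (TTC and GAA with 4 bases between them).
Mrc1 (chr2:14229164-14229413, plus strand): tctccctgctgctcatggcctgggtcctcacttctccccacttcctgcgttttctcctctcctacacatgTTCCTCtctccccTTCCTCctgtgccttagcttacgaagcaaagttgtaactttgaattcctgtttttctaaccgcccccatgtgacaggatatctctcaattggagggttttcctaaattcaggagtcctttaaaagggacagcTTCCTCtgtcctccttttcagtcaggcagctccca
Mgl2 (chr11:70130107-70130356, plus strand): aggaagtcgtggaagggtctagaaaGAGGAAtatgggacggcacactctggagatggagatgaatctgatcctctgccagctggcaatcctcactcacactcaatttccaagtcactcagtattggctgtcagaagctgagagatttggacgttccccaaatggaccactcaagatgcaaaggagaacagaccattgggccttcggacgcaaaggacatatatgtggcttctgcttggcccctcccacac
Clec7a (chr6:129472786-129473035, minus strand): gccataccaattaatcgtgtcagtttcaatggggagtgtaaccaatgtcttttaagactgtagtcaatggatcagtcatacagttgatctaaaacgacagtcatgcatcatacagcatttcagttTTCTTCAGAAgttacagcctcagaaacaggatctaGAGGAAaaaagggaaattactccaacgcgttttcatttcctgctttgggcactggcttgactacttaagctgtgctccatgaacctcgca
Clec4e (chr6:123289872-123290121, minus strand): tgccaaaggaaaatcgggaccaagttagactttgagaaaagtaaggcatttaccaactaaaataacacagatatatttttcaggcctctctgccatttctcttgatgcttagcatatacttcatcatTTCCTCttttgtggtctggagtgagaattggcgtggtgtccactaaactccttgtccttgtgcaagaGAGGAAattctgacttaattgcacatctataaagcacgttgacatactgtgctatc
Clec5a (chr6:40585806-40586055, minus strand): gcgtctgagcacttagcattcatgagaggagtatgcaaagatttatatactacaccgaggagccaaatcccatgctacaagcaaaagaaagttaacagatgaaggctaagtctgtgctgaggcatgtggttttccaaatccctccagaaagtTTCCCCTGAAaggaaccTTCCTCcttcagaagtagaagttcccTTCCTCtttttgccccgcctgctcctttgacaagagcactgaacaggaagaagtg

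The PU.1 core occurred in 7 of the 8 member windows with such an entry, and in 22.0% of the windows of 8360 tested genes and 23.3% of all 32851 windows. Clec4a2 was the 1 member window without it. The STAT6 palindrome occurred in 2 member windows, that of Clec7a, which rose, and that of Clec5a, which fell, and in 4.69% of the windows of tested genes. It was not found in the windows of Mrc1 and Mgl2. A related STAT palindrome with a 3-base spacer (TTCNNNGAA) was found only in that of Clec4a2 among the 8 member windows, against 5.77% of the windows of tested genes. A C/EBP motif (TTGCNNAA) was found in those of Clec4e and Clec12a, against 7.28%. A κB motif (GGG and CC with 5 bases between them) was found in those of Mrc1 and Mgl2, against 62.6%. Every motif was searched on both strands. A match is a stretch of letters and not a shown binding site, and the absence of one holds for these 250 bases alone. Clec10a and Clec4n had no such entry.

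Mrc1 encodes CD206, the mannose receptor, an endocytic receptor with several lectin domains. It is measured on NM_008625, chromosome 2, 14229414 to 14332023, plus strand (mm10, as for all positions here). Its level was 4.82, 5.04 and 3.44 TPM in M2 replicates 1, 2 and 3, against 0.312, 0.337 and 0.314 TPM in M0 replicates 1, 2 and 3. Every M2 library stood far above every M0 library, and the values rest on 1112 reads over the M2 libraries and 75 over the M0 libraries. The ratio of the mean levels was 13.8, the highest of the 10 members. On log2(TPM + 1) the difference was 2.03 (SE 0.133, adjusted p = 1.12e-05 by limma), a scale that understates a gene with so low an M0 level: with a pseudocount of 0.1 it was 3.41, with limma-voom on the recovered reads it was 3.77, and the authors' deposited table gives 3.81. No M0 library reached 1 TPM for Mrc1, so that the filter fixed the direction of its difference. M2 replicate 3 had the lowest of the M2 values, the Mrc1 model is 5286 bases long, and without that library the log2 fold change was 2.17 (adjusted p = 3.47e-06 by limma). Even after its rise, Mrc1 ranked 8 of 10 among the members by level in M2 cells.

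Mgl2 and Clec10a encode the mouse galactose-type lectins CD301b and CD301a. They lie next to each other on chromosome 11, with Mgl2 on NM_145137 at 70130357 to 70137542 and Clec10a on NM_010796 at 70166623 to 70170836, both on the plus strand. Mgl2 stood at 191, 186 and 173 TPM in M2 replicates 1, 2 and 3, against 48.7, 44.2 and 40.4 TPM in M0 replicates 1, 2 and 3. Clec10a stood at 161, 157 and 169 TPM in the M2 libraries, against 79.7, 76.0 and 69.6 TPM in the M0 libraries, in the same order of replicates. Both genes were higher in every M2 library than in any M0 library, and the rise was steeper for Mgl2. By the ratio of means Mgl2 was 4.13-fold and Clec10a 2.17-fold higher in M2. The log2 fold changes were 2.02 for Mgl2 (SE 0.0755, adjusted p = 9.07e-07 by limma) and 1.11 for Clec10a (SE 0.0637, adjusted p = 6.07e-06).

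Mgl2 was the higher of these neighbours in every M2 library and the lower in every M0 library. Mgl2 had 1.19, 1.18 and 1.02 times the TPM of Clec10a in M2 replicates 1, 2 and 3, against 0.611, 0.581 and 0.580 times in M0 replicates 1, 2 and 3. The log2 ratio was 0.172 ± 0.122 in M2 and -0.760 ± 0.0419 in M0 (SD, n = 3 each), a difference of 0.932 (two-sided exact permutation p = 0.1, adjusted over 4 pairs p = 0.133). With 3 libraries against 3 this exact test cannot give less than 0.1, so it cannot pass the threshold for any pair. The transcripts of the genes are alike: of the 1537 windows of 50 bases in the Mgl2 transcript 242 also occur in Clec10a, where they make up 16.7% of the windows. No source used here says how reads that match both were counted. The levels of Mgl2 and Clec10a are therefore less certain than those of members with no shared window in the transcript searched. For Clec7a and Clec5a the 658 and 809 windows searched fell short of the measured models of 2143 and 3811 bases, so part of each model was not checked.

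**Figure D1:**
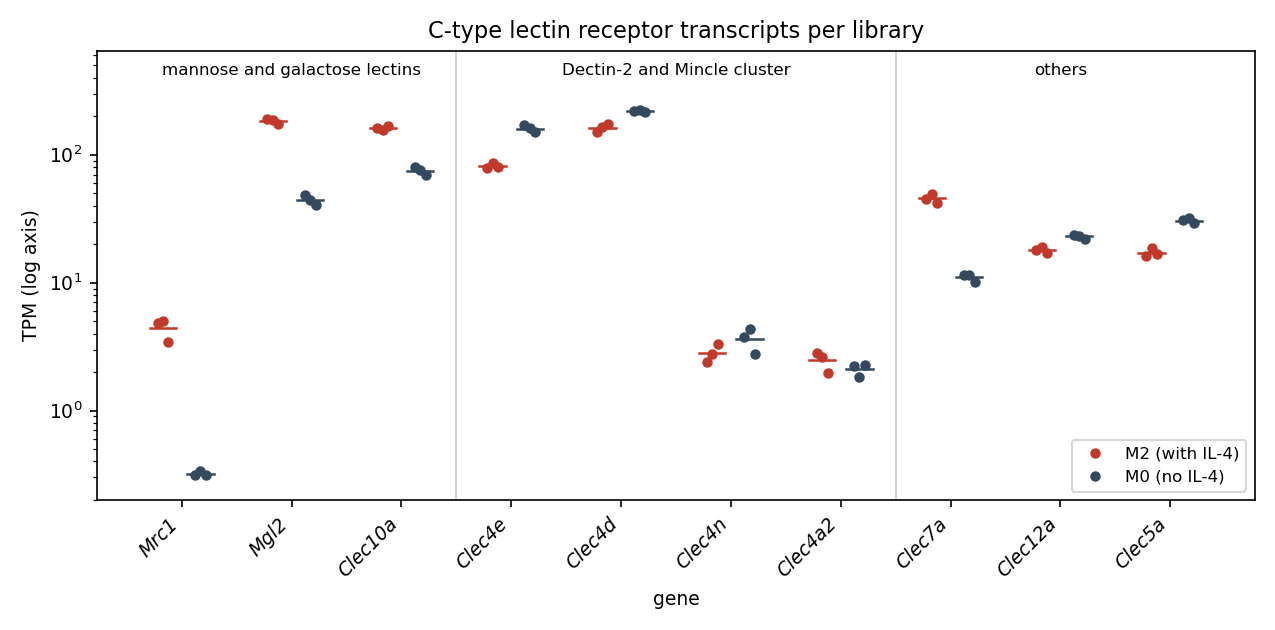
TPM of each of the 10 receptor genes (log axis) in the 3 M2 libraries (red, left of each gene) and the 3 M0 libraries (dark, right), with a bar at each group's mean. The M2 points lie above the M0 points for Mrc1, Mgl2, Clec10a and Clec7a, below them for Clec4e, Clec4d, Clec12a and Clec5a, and among them for Clec4n and Clec4a2.

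The members of the Mincle cluster did the opposite or did not pass. Clec4e encodes Mincle, a receptor of mycobacterial cord factor, and is measured on NM_019948, chromosome 6, 123281789 to 123289871, minus strand. It stood at 79.4, 86.5 and 80.1 TPM in M2 replicates 1, 2 and 3, against 169, 162 and 149 TPM in M0 replicates 1, 2 and 3. The M2 libraries lay close together and all below the lowest M0 library. The M2 mean was 0.512 times the M0 mean (log2 fold change -0.96, SE 0.0644, adjusted p = 1.30e-05 by limma).

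Clec4d encodes MCL, which forms a receptor complex with Mincle, and its model NM_010819 runs from 123262107 to 123275268 on the plus strand of the same chromosome. It stood at 149, 164 and 175 TPM in the M2 libraries, against 218, 222 and 217 TPM in the M0 libraries, in the order of replicates. No M2 library reached the M0 range, and M2 replicate 3 was the highest of the M2 libraries for this short model of 1328 bases. Its fall was smaller, to 0.743 times the M0 mean (log2 fold change -0.43, SE 0.0651, adjusted p = 9.30e-04 by limma). Clec4e had 0.532, 0.528 and 0.457 times the TPM of Clec4d in M2 replicates 1, 2 and 3, against 0.776, 0.730 and 0.688 times in M0 replicates 1, 2 and 3. The log2 ratio differed by -0.53 (two-sided exact permutation p = 0.1, the smallest possible, adjusted over 4 pairs p = 0.133), with a lower ratio in all 3 M2 libraries than in any M0 library.

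Clec4n, which encodes Dectin-2, a receptor of fungal mannans, and Clec4a2, which encodes the inhibitory receptor DCIR, were low in both groups. Clec4n stood at 2.38, 2.75 and 3.34 TPM in the M2 libraries, against 3.75, 4.36 and 2.79 TPM in the M0 libraries, on 155 and 184 reads in all. Clec4a2 stood at 2.83, 2.64 and 1.97 TPM in the M2 libraries, against 2.23, 1.82 and 2.27 TPM in the M0 libraries, on 282 and 222 reads. The groups overlapped for each of them. Neither passed (adjusted p = 0.17 for Clec4n and 0.336 for Clec4a2 by limma). Without M2 replicate 3, which stood apart by transcript length, they came closer but still did not pass (adjusted p = 0.0654 and 0.0681 by limma). The 95% intervals of their log2 fold changes ran from -0.605 to 0.066 for Clec4n and from -0.128 to 0.443 for Clec4a2, and changes within those intervals are compatible with these values. Of the 869 windows of 50 bases searched for Clec4a2, 19.9% also occur in another gene, most often in Clec4a4, an inhibitory receptor of the same group. The transcript searched was shorter than the measured model of 2392 bases, so the share over that model is not known.

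The rest of the Clec4 row on chromosome 6 did not follow Clec4e and Clec4d. The files list 9 Clec4 genes within 368 kb, from Clec4a1 to Clec4e, and 6 of them passed the filter on low values. At the far end from Clec4e, Clec4a3 stood at 46.5, 47.3 and 47.9 TPM in M2 replicates 1, 2 and 3, against 21.2, 19.8 and 16.5 TPM in M0 replicates 1, 2 and 3, and the groups did not overlap. Clec4a3 rose 2.46-fold by the ratio of means (log2 fold change 1.26, SE 0.0885, adjusted p = 1.60e-05 by limma). Its neighbour Clec4a1 averaged 20.01 ± 1.3 TPM in M2 and 12.25 ± 0.399 TPM in M0 (SD, n = 3 each; adjusted p = 1.87e-04 by limma). Windows shared with other genes were searched for the members alone, so those of Clec4a3 and Clec4a1 were not checked. Between these and the Mincle end, Clec4a4 had 21 reads over the M2 libraries and 8 over the M0 libraries, Clec4b1 had 3 and 7, and Clec4b2 had 0 in both groups. The genes that rose and the genes that fell thus sat at opposite ends of the row, with low or undetected genes between them.

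**Figure D2:**
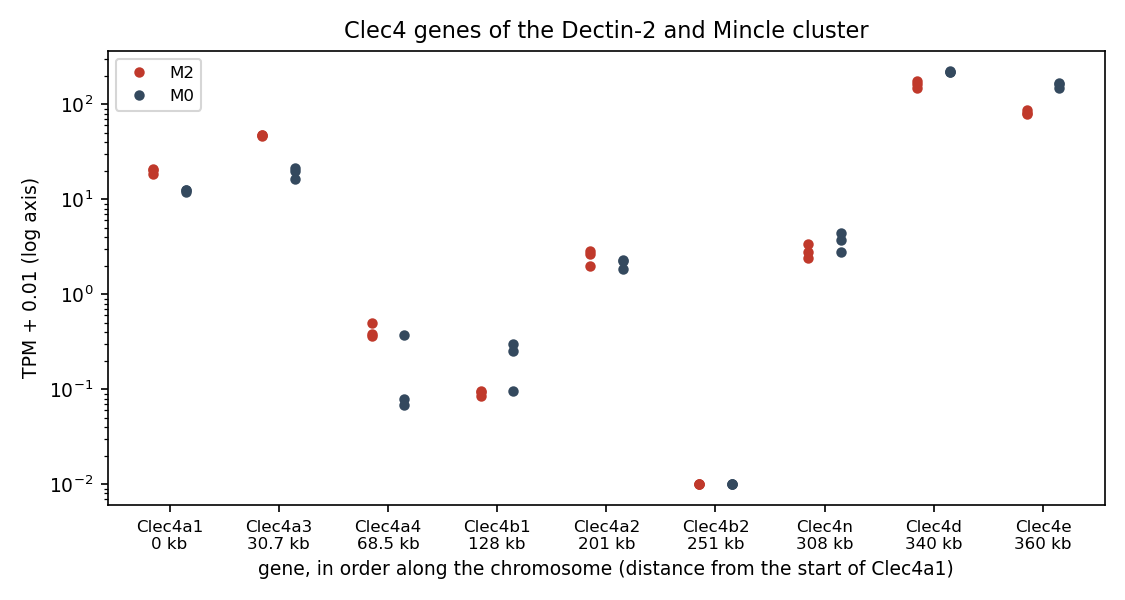
TPM + 0.01 (log axis) of the 9 Clec4 genes in their order along the chromosome, with the distance of each start from that of Clec4a1 in kb, for the 3 M2 libraries (red, left) and the 3 M0 libraries (dark, right). Clec4a1 and Clec4a3 are higher in M2, Clec4d and Clec4e at the other end are lower, and points at the floor are genes listed at 0.

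Clec7a encodes Dectin-1, the β-glucan receptor, and is measured on NM_001309637, chromosome 6, 129461591 to 129472785, minus strand. It stood at 45.02, 49.5 and 42.2 TPM in M2 replicates 1, 2 and 3, against 11.4, 11.4 and 10.1 TPM in M0 replicates 1, 2 and 3. All M2 libraries were far above all M0 libraries. The ratio of means was 4.14 (log2 fold change 1.96, SE 0.0807, adjusted p = 1.06e-06 by limma), a size close to that of Mgl2. Dectin-1 signals through SYK, and it changed in the opposite direction to Mincle, MCL and MDL-1, the SYK-coupled members that fell.

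Clec12a encodes MICL, an inhibitory receptor of dead cells and uric acid crystals, and lies in the same row of genes as Clec7a, at 129350244 to 129365303 on the plus strand. It stood at 18.0, 19.1 and 17.005 TPM in M2 replicates 1, 2 and 3, against 23.8, 23.3 and 22.1 TPM in M0 replicates 1, 2 and 3. The groups did not overlap, and the M2 mean was 0.782 times the M0 mean (log2 fold change -0.34, SE 0.0697, adjusted p = 0.00445 by limma). The ratio of Clec7a to Clec12a was 2.5, 2.59 and 2.48 in the M2 libraries, against 0.481, 0.491 and 0.458 in the M0 libraries. Its log2 value differed by 2.40 (two-sided exact permutation p = 0.1, the smallest possible, adjusted over 4 pairs p = 0.133). Between Clec12a and Clec7a lie 4 genes, Clec12b, Clec1b, Clec9a and Clec1a, which had between 0 and 5 reads over the M2 libraries and between 0 and 5 over the M0 libraries. For the pair Clec4n and Clec4a2 the ratio was 0.842, 1.04 and 1.69 in M2 replicates 1, 2 and 3, against 1.68, 2.39 and 1.23 in M0 replicates 1, 2 and 3. The log2 ratio of that pair differed by -0.58 between M2 and M0 (exact permutation p = 0.3, adjusted over 4 pairs p = 0.3). The groups overlapped through M2 replicate 3, the library that stood apart by transcript length, and the models are 1136 and 2392 bases long.

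Clec5a encodes MDL-1, which signals through the adaptors DAP12 and DAP10, and is measured on NM_001038604, chromosome 6, 40574898 to 40585805, minus strand. It stood at 16.1, 18.5 and 16.76 TPM in M2 replicates 1, 2 and 3, against 30.7, 31.7 and 29.3 TPM in M0 replicates 1, 2 and 3. Every M2 value was well below the lowest M0 value. Its fall, to 0.560 times the M0 mean, was near that of Clec4e (log2 fold change -0.80, SE 0.0725, adjusted p = 5.75e-05 by limma).

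**Figure D3:**
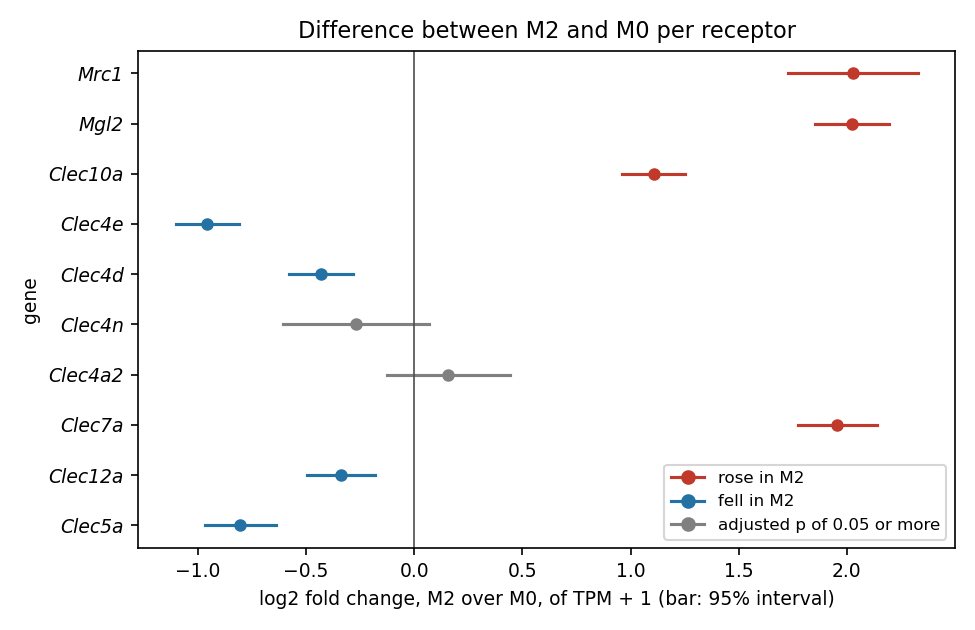
Log2 fold change of TPM + 1, M2 over M0, for each receptor gene (points) with its 95% interval from limma (bars), coloured by whether the gene rose, fell or did not pass an adjusted p of 0.05. Mrc1, Mgl2 and Clec7a lie near 2, Clec4e lies near -1, and the intervals of Clec4n and Clec4a2 cross 0.

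Set against each other by the groups named at the start, the galactose lectins Mgl2 and Clec10a rose, with log2 fold changes of 2.02 and 1.11. Mrc1 rose too, but the filter fixed its direction, so it adds nothing to the count. Of the 4 members of the Mincle cluster 0 rose and 2 fell, beside 20.1% of all tested genes that rose and 23.7% that fell. The median log2 fold change of these 4 was -0.35, beside a median of -0.03 over all tested genes. Clec4a3 and Clec4a1, of the same row of Clec4 genes, rose but are no members. They are left out of these counts and of the sums below, which therefore do not describe the whole row. Summed over the genes, the mannose and galactose lectins came to 358, 348 and 345 TPM in M2 replicates 1, 2 and 3, against 129, 121 and 110.3 TPM in M0 replicates 1, 2 and 3. The 4 members of the Mincle cluster came to 234, 256 and 261 TPM in the M2 libraries, against 394, 390.4 and 372 TPM in the M0 libraries. The first sum was thus 1.53, 1.36 and 1.33 times the second in the M2 libraries, against 0.327, 0.309 and 0.297 times in the M0 libraries. Mannose and galactose lectins held between 50.4% and 53.3% of the TPM of all 10 members in M2 libraries, against 20.3% to 21.9% in M0 libraries. The total of the 10 members moved less, with 671, 691 and 682 TPM in the M2 libraries, against 588, 578 and 544 TPM in the M0 libraries. Nearly all of the mannose and galactose sum came from Mgl2 and Clec10a, since Mrc1 was low. Likewise, nearly all of the Mincle cluster sum came from Clec4d and Clec4e, since Clec4n and Clec4a2 were low.

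**Figure D4:**
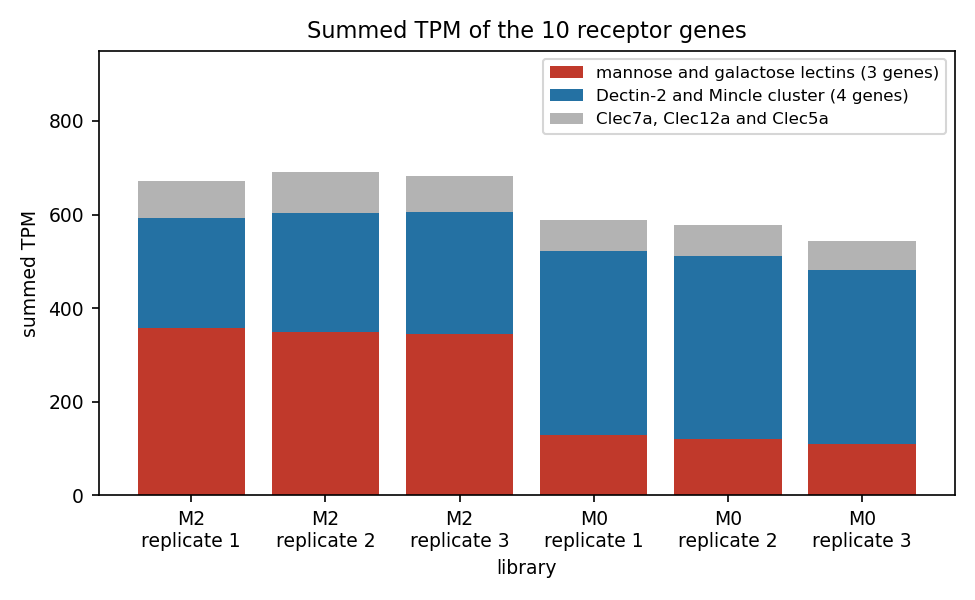
Summed TPM of the mannose and galactose lectins (red), the members of the Dectin-2 and Mincle cluster (blue) and the 3 other members (grey), stacked for each of the 3 M2 libraries (left) and the 3 M0 libraries (right). The red part is between 345 and 358 TPM in M2 libraries and between 110.3 and 129 TPM in M0 libraries, and the blue part is smaller in every M2 library than in any M0 library.

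By level, Mgl2 came first in M2 cells at 183 ± 9.55 TPM, followed by Clec4d at 163 ± 13.0 TPM and Clec10a at 163 ± 6.01 TPM (SD, n = 3). The libraries of these neighbours in the order overlapped, as did those of Clec12a and Clec5a and those of Clec4n and Clec4a2. In M0 cells the order began with Clec4d at 219 ± 2.64 TPM and Clec4e at 160.3 ± 10.1 TPM, followed by Clec10a and Mgl2, and no neighbours in the order overlapped. Clec7a moved to position 5 in M2 cells, against position 7 in M0 cells, and Clec5a to position 7 in M2 cells, against position 5 in M0 cells. The highest member had 73.9 times the mean TPM of the lowest in M2 cells and 683 times in M0 cells, where Mrc1 was the lowest.

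Beyond the members, a list of 57 other genes with C-type lectin domains was examined, of which 9 passed the filter, 2 rose, 2 fell and 5 did not pass. Over all tested genes 20.1% rose and 23.7% fell, so these counts say little by themselves. Besides Clec4a3 and Clec4a1, which rose, Cd93 averaged 0.597 ± 0.132 TPM in M2 and 1.70 ± 0.0789 TPM in M0 (SD, n = 3 each; adjusted p = 6.80e-04 by limma). Cd93 passed the filter through its M0 libraries alone, so its direction was fixed and it adds nothing to the count of genes that fell. Thbd, the gene of the anticoagulant receptor thrombomodulin, fell, with 3.38 ± 0.260 TPM in M2 and 4.57 ± 0.357 TPM in M0 (adjusted p = 0.0181 by limma). The Thbd call was lost without M0 replicate 2 (adjusted p = 0.0841), without M0 replicate 3 (adjusted p = 0.052) and without the filter (adjusted p = 0.0552, all by limma). The abundant scavenger receptor gene Colec12, at 226 ± 22.2 TPM in M2 and 219 ± 4.68 TPM in M0, did not pass, nor did Cd72, Clec11a or Clec2d. Cd302 missed the threshold narrowly (adjusted p = 0.0505 by limma) and passed it under 3 of 13 alternatives. The other 48 genes of the list lay below the filter, and 19 of them had 0 reads in every library. Among those 48, Cd207, the gene of the mannose-binding lectin langerin, was singled out after its values were seen. It had 54 reads over the M2 libraries and 0 over the M0 libraries, at 0.593, 0.785 and 0.831 TPM in M2 replicates 1, 2 and 3, against 0 TPM in each M0 library. Against a floor of 3 reads over the M0 libraries, Cd207 was at least 16.7-fold higher in M2.

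Genes of the signalling machinery behind these receptors fell more often than they rose. Of 26 listed genes 25 were tested, of which 14 fell, 1 rose and 10 did not pass, with a median log2 fold change of -0.27, beside 23.7% of all tested genes that fell and a median of -0.03. The 14 include Fgr, which passed the filter through its M0 libraries alone, so its direction was fixed and it adds nothing to the count. Among the adaptors, Tyrobp, which encodes DAP12, the partner of MDL-1, averaged 578 ± 44.8 TPM in M2 and 684 ± 53.7 TPM in M0 (SD, n = 3 each; adjusted p = 0.0352 by limma). Fcer1g, which encodes FcRγ, the partner of Mincle and Dectin-2, averaged 800 ± 90.7 TPM in M2 and 965 ± 106 TPM in M0 and did not pass (adjusted p = 0.0574). Hcst, which encodes DAP10, was the 1 gene that rose, at 7.30 ± 0.614 TPM in M2 and 5.24 ± 0.930 TPM in M0 (adjusted p = 0.0209). Syk, Card9, Malt1, Tyrobp, Fcer1g, Ptpn11 and Inpp5d are given for their roles and were chosen after their values were seen. The rise of Hcst did not pass without M2 replicate 1, without M2 replicate 2, or without M0 replicate 1 or 2, where 0 genes of the list rose, while 5 rose and 14 fell without M2 replicate 3.

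The genes of SYK and of the CARD9, BCL10 and MALT1 complex fell. Syk averaged 11.0 ± 1.54 TPM in M2 and 16.6 ± 1.48 TPM in M0 (SD, n = 3 each; log2 fold change -0.55, adjusted p = 0.00390 by limma), with M2 replicate 3 the lowest at 9.25 TPM for a model of 5083 bases. Card9 stood at 26.9, 23.5 and 24.1 TPM in M2 replicates 1, 2 and 3, against 32.2, 33.6 and 32.3 TPM in M0 replicates 1, 2 and 3 (adjusted p = 0.00206). Bcl10 stood at 38.4, 45.3 and 42.8 TPM in the M2 libraries, against 62.5, 62.5 and 61.7 TPM in the M0 libraries (adjusted p = 3.09e-04). Malt1 averaged 6.68 ± 1.19 TPM in M2 and 9.89 ± 0.597 TPM in M0 (adjusted p = 0.00830). Of the SRC-family kinases, which phosphorylate receptor tails, Lyn fell, averaging 27.4 ± 1.32 TPM in M2 and 48.1 ± 0.750 TPM in M0 (adjusted p = 2.2e-05 by limma), as did Fgr, at 0.608 ± 0.0982 TPM in M2 and 2.29 ± 0.370 TPM in M0, which passed the filter through its M0 libraries alone. Of the phosphatases that inhibitory lectins recruit, Ptpn6, the gene of SHP-1, stood at 150.3, 148 and 150.4 TPM in the M2 libraries, against 250.4, 274 and 264 TPM in the M0 libraries (log2 fold change -0.81, adjusted p = 1.17e-05 by limma). Ptpn11 and Inpp5d did not pass.

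**Figure D5:**
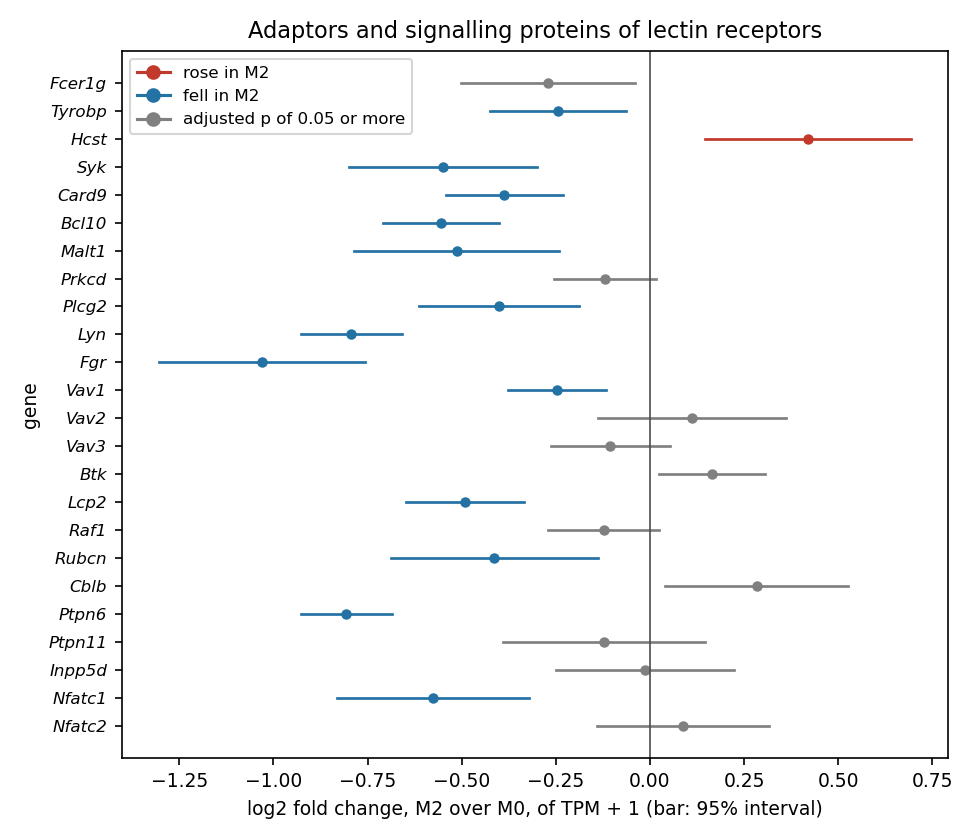
Log2 fold change of TPM + 1, M2 over M0, with its 95% interval from limma for tested genes of lectin receptor signalling, coloured by whether the gene rose, fell or did not pass. Most points lie left of 0, from Fgr, Ptpn6 and Lyn at the far left to the BCL10 and CARD9 genes nearer to 0, and Hcst is the only gene marked as risen.

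Of 17 cytokine and other genes that lectin signalling is known to switch on, 7 were tested, of which 3 fell, 2 rose and 2 did not pass. For comparison, 23.7% of all tested genes fell and 20.1% rose. Tnf averaged 7.45 ± 0.687 TPM in M2 and 23.7 ± 1.00 TPM in M0 (SD, n = 3 each; adjusted p = 4.04e-06 by limma), and the chemokine genes Cxcl2 and Ccl3 also fell. Cxcl2 averaged 0.827 ± 0.123 TPM in M2 and 6.69 ± 0.8 TPM in M0. It passed the filter through its M0 libraries alone, so its direction was fixed and it adds nothing to the count. Il10, an anti-inflammatory cytokine gene, rose, with 5.81, 5.67 and 5.35 TPM in M2 replicates 1, 2 and 3, against 2.88, 1.93 and 1.57 TPM in M0 replicates 1, 2 and 3 (log2 fold change 1.10, adjusted p = 4.62e-04 by limma). Il1rn, the gene of an IL-1 antagonist, rose slightly, at 10.2 ± 0.234 TPM in M2 and 8.31 ± 0.682 TPM in M0 (adjusted p = 0.0302 by limma). The Il1rn call was lost without M2 replicate 1 or 2 and without M0 replicate 1 or 3 (adjusted p between 0.0721 and 0.127). It was also lost without the filter (adjusted p = 0.0569 by limma). Ptgs2 and Ccl4 did not pass.

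Of 9 genes known to regulate lectin genes in macrophages, 8 were tested, of which 4 rose and 3 fell, beside 20.1% and 23.7% of all tested genes. Il4ra, which encodes a chain of the IL-4 receptor, rose, averaging 8.09 ± 0.777 TPM in M2 and 4.14 ± 0.227 TPM in M0 (SD, n = 3 each), with an adjusted p of 2.31e-04 by limma. Klf4 and Pparg were also among those that rose. Pparg passed the filter through its M2 libraries alone, so its direction was fixed and it adds nothing to the count. Cebpb, a factor known to drive the Mincle gene in mouse macrophages, averaged 130.3 ± 13.1 TPM in M2 and 197 ± 18.5 TPM in M0 (adjusted p = 8.82e-04), while Stat6 and Maf fell by less. Without M0 replicate 1, or without M0 replicate 2, 1 regulator fell. Spi1, the gene of PU.1, did not pass. Galectins and Siglecs are the other main families of sugar-binding proteins in macrophages. Of 15 genes listed under them 7 were tested, of which 1 rose and 2 fell, beside 20.1% and 23.7% of all tested genes. Lgals3, the gene of galectin-3, averaged 927 ± 45 TPM in M2 and 729 ± 31.3 TPM in M0 (adjusted p = 0.00258 by limma). Lgals9 averaged 25.5 ± 0.468 TPM in M2 and 35.6 ± 1.01 TPM in M0 (adjusted p = 3.11e-04), and Cd33 11.2 ± 1.84 TPM in M2 and 14.7 ± 0.445 TPM in M0 (adjusted p = 0.022), the last a call lost without any 1 of the M0 libraries (adjusted p between 0.0542 and 0.073). Lgals3bp and Siglece were among those that did not pass, though Lgals3bp passed without M2 replicate 1 (adjusted p = 0.0454). Lgals3bp encodes a protein bound by galectin-3 and is itself neither a galectin nor a Siglec.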

How the data were processed

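Poly(A) RNA of RAW264.7 cells was sequenced in 6 libraries, 3 M2 and 3 M0, grouped by their titles. Tools named in the submitters' processing notes, with no roles, are STAR 2.7.5a, HOMER 4.11.1, bcl2fastq and DESeq2, and the build is mm10. No source used here gives the annotation, the strand setting or the treatment of reads with several matches. Per the file headers, the authors deposited TPM values for 25124 genes. A second table of the authors holds deposited values per library, read as log2-scale from their range, and also the authors' own log2 fold change (positive where M2 is higher) and its p-value.

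Genes with at least 1 TPM in at least 3 libraries, 11202 in all, were fitted by group with limma 3.58.1 in R 4.3.3 on log2(TPM + 1), with a variance trend and Benjamini-Hochberg adjustment, and called at an adjusted p under 0.05. From the TPM steps and model lengths whole reads were recovered, 100.0% of the checked values within 0.1 read in every library. Intervals are 95%. Python 3.11.15 made tables and figures. The fit was tested on simulated reads with a fixed spread and no trend by transcript length. That test checks the code and not the calls in these libraries. Besides the members, the 5 tested genes of lowest adjusted p in a list were named, plus those that complete a count of 5 or fewer and genes lying between members. Some genes of these lists are counted but not reported here by name. Members and lists were chosen with earlier results of these data known. The alternatives were 13: pseudocount 0.1, no filter, a filter on a mean of at least 1 TPM, median-ratio scaling, limma-voom on recovered reads, the authors' log2-scale values, a replicate block and leaving out each library.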

Additional observations from a re-analysis of the deposited data

How the results depend on the processing

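All 10 members kept their direction and their side of the threshold under all 13 alternatives: 8 changed in each, 4 upward and 4 downward, and Clec4n and Clec4a2 passed in none (adjusted p between 0.0605 and 0.468 and between 0.0681 and 0.663). The 4 pair ratios kept their direction in every alternative run. M2 and M0 replicates share numbers, but their deviations correlated at -0.033, 0.211 and 0.029 for numbers 1, 2 and 3, so the numbers are not taken as pairs. With the number as a replicate block 4870 genes changed, against 4899 without it, the member counts stayed at 4 and 4, and every member kept its side. Leaving out 1 library each, the count over all genes ran from 3556 to 5694.

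Counts of small lists moved. Without a filter 4 other C-type lectin genes rose and 1 fell, 0 signalling genes rose and 5 inflammatory target genes fell. The signalling genes that rose were 3 with median-ratio scaling, with limma-voom and on the authors' log2-scale values. Leaving out 1 library each, the counts ran from 1 to 2 for other C-type lectins that fell, 0 to 5 for signalling genes that rose, 1 to 2 for inflammatory targets that rose, 1 to 4 for regulators that fell and 1 to 3 for galectins and Siglecs that fell; the cause was not tested. Of 325 values of 25 named genes outside the members, 309 kept their side, 12 no longer passed, 4 came to pass and 0 turned round. The 4 were Cd302 with a pseudocount of 0.1, with median-ratio scaling and on the authors' log2-scale values (adjusted p between 0.0445 and 0.0498) and Lgals3bp without M2 replicate 1 (adjusted p = 0.0454). The low reads of Mrc1, Clec4n and Clec4a2 limit the precision of their values.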
